A study of Arabidopsis thaliana with 27 samples.

Results

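Gene expression was compared between elongated zygotes, collected 24 hours after pollination (Zy24), and spherical zygotes, collected 14 hours after pollination (Zy14), of Arabidopsis thaliana accession Columbia (Col). The comparison used the 3 Zy24 and the 3 Zy14 libraries, 6 of the 27 libraries of a series that follows Arabidopsis from the egg cell to the early embryo. The libraries were chosen by their labels alone, and no mutant allele and no treatment is stated for them. Plants grew in a greenhouse under long days. Hybrid zygotes of the same ages, also with 3 libraries a group, served for a second comparison: LZy24 and LZy14 had a Ler (Landsberg erecta) mother and a Col father, and CZy24 and CZy14 had a Col mother and a Ler father. Polyadenylated RNA was captured on beads and amplified as full-length cDNA, and each value is in FPKM, mapped fragments scaled to transcript length and to the size of the library. The labels do not state whether the libraries of a group came from separate plants or collections. The p-values thus measure only the spread between libraries within groups, which may be technical. For the Col step this spread was estimated over all 15 Col libraries, egg cells and embryos included.

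The Arabidopsis zygote is transiently round after fertilization, then elongates along the future body axis and divides asymmetrically into a small apical cell, which founds most of the embryo, and a large basal cell, which gives rise to the suspensor. Elongation requires new wall material, a growing vacuole and directed delivery of vesicles along the cytoskeleton, while the nucleus prepares for division. A mitogen-activated protein kinase cascade headed by YODA, with the membrane-associated kinase SSP above it, and transcription factors of the WOX, WRKY, RKD and HD-ZIP classes are known for their part in this polarity.

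The 6 libraries listed between 15597 and 16170 genes in Zy24 and between 17903 and 20062 genes in Zy14, and the summed FPKM lay between 841186 and 862339 in Zy24 and between 746880 and 804425 in Zy14. The files hold no read counts. From steps in the low values, 1 fragment on a transcript of 1 kb corresponded to 0.0412 to 0.0722 FPKM in Zy24 and 0.0592 to 0.0646 FPKM in Zy14, so that the deepest library was 1.75 times as deep as the shallowest. Zy24 replicate 3 lay between replicates 1 and 2 in 91.2% of the 3127 genes that differed more than 2-fold between those replicates, and Zy14 replicate 1 lay between its partners in 80.6% of 3554 such genes. Of the zygote and embryo markers, the regulators WOX8 and RKD4 were present in each of the 6 libraries, at the levels given below. WOX2 was low in all Zy14 libraries and WOX9 in Zy14 replicate 3. BBM, also planned as a marker, is not reported here. The 5 synergid markers summed to 0 FPKM in every Zy24 library, against 816, 0.90 and 0.45 FPKM in the Zy14 libraries. ECA1 gametogenesis related genes, small secreted proteins of the female gametophyte, summed to 4.1, 5.76 and 6.26 FPKM in Zy24, against 7611, 23.6 and 77.3 FPKM in Zy14. Zy14 replicate 1 thus stood apart from its partners in both lists, and the part of this library in the results was not tested beyond leaving it out. Summed marker levels of the central cell and endosperm stayed at or below 13.6 FPKM, those of the seed coat and ovule integument at or below 2.76 FPKM and those of sperm and pollen at or below 7.62 FPKM in all 6 libraries.

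At 24 hours 2987 of 18481 tested genes were called higher (16.2%) and 3984 were called lower (21.6%) than at 14 hours. A gene was called, and is said to have risen or fallen, at an adjusted p under 0.05 and a log2 change of at least 1 in either direction, in a limma fit to log2(FPKM + 1) with Benjamini-Hochberg adjustment over all tested genes. Adding 1 FPKM before the logarithm understates the change of weakly expressed genes. The median log2 change over all tested genes was -0.07 and its median standard error 0.33, while genes called higher had a median change of 1.64 and genes called lower a median change of -1.93. In 6374 of the 6971 called genes the libraries of the 2 ages did not overlap. Over all tested genes, called or not, 23.6% had every Zy24 library above every Zy14 library and 27.1% had every Zy24 library below. Without Zy14 replicate 1 and Zy24 replicate 3 the counts were 2448 higher and 3076 lower. A fit to the 6 compared libraries alone gave 2551 higher and 3109 lower. As bulk measurements, these values cannot tell fewer cells of a type from less RNA per cell.

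**Figure D1:**
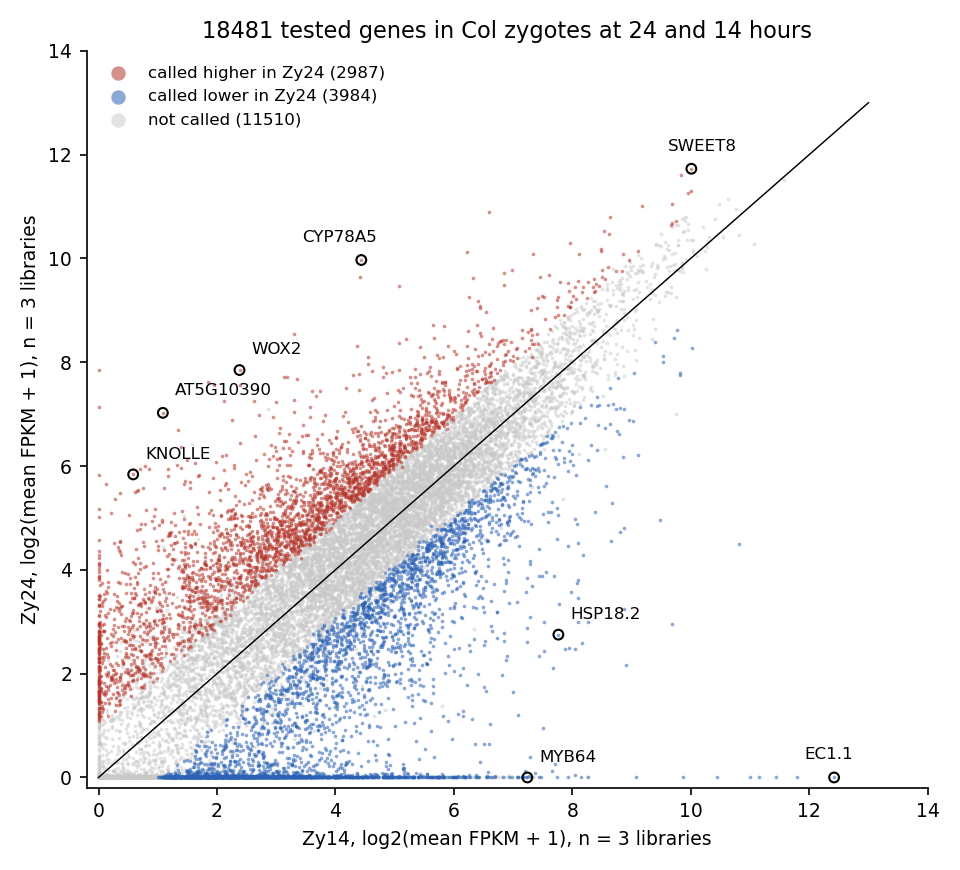
Each point is 1 of 18481 tested genes, with log2 of the mean FPKM + 1 over the 3 Zy24 libraries on the vertical axis and over the 3 Zy14 libraries on the horizontal axis. Red points are the 2987 genes called higher in Zy24 and blue points the 3984 called lower. EC1.1, MYB64 and HSP18.2 lie far below the diagonal, and WOX2, CYP78A5 and AT5G10390 lie far above it.

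Listed at 0 in all 3 Zy24 libraries were 164 genes (0.887% of those tested) that had at least 10 FPKM in all 3 Zy14 libraries, and 2 genes (0.0108%) showed the reverse. All 9 tested egg cell genes fell, where 21.6% of all tested genes did, and their summed FPKM was 54.3, 30.2 and 27.4 FPKM in Zy24, against 12450, 23750 and 17420 FPKM in Zy14. EC1.1, a small protein the egg releases to activate sperm, was listed at 0 in all Zy24 libraries, against 3628, 7165 and 5628 FPKM in the Zy14 libraries (adjusted p = 1.77e-12). Outside the egg cell list, the subtilase SBT4.13 had 0.01, 0 and 0 FPKM in the Zy24 libraries, against 1642, 1558 and 985 FPKM in the Zy14 libraries. Its log2 change was -10.41 ± 0.22, adjusted p = 7.78e-14. The dehydrin ERD10, a protein of dehydrated tissue, had 0.12, 0 and 0 FPKM in Zy24, against 184, 256 and 348 FPKM in Zy14 (log2 change -7.94 ± 0.29, adjusted p = 1.4e-10). PR5, a thaumatin-like defence protein, was listed at 0 in Zy24, against 181, 264 and 192 FPKM in Zy14 (adjusted p = 2.14e-10). The F-box gene AT1G80470 had 0, 0.03 and 0 FPKM in Zy24, against 298, 415 and 132 FPKM in Zy14, and AT5G44820, a predicted sugar transferase, was listed at 0 in Zy24 against 231, 281 and 217 FPKM in Zy14. An entry of 0 can be a failed estimate as well as an absent transcript, so genes listed at 0 in a whole age are given by their values with no fold change of the Col step.

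The 12 highest rises and 12 lowest falls were taken among called genes whose libraries of the 2 ages do not overlap, so that separation was fixed by the choice. In the gene lists below, called members with the largest changes were named, which also favours separation of the ages. Among the 12 highest rises were enzymes, nuclear proteins and a regulator of the embryo. CYP78A5, a cytochrome P450 that promotes organ and seed growth, had 882, 1019 and 1102 FPKM in the Zy24 libraries, against 24.7, 37.3 and 0 FPKM in the Zy14 libraries (log2 change 6.65 ± 0.89, adjusted p = 3.56e-05). The Zy24 libraries were close to each other, while Zy14 replicate 3 was listed at 0. WOX2, the homeobox factor of the apical lineage, had 136, 297 and 256 FPKM in the Zy24 libraries, against 3.02, 3.63 and 5.97 FPKM in the Zy14 libraries (log2 change 5.43 ± 0.28, adjusted p = 2.87e-09). The lowest Zy24 library was far above the highest Zy14 library. HTA11, a histone H2A.Z, had 159, 253 and 175 FPKM in Zy24, against 2.32, 1.06 and 4.44 FPKM in Zy14 (log2 change 5.85 ± 0.29, adjusted p = 2.6e-09). AUG1, a subunit of the augmin complex that nucleates microtubules on microtubules, had 155, 148 and 152 FPKM in Zy24, against 0.86, 2.17 and 7.05 FPKM in Zy14 (log2 change 5.4 ± 0.51, adjusted p = 1.31e-06). The kinase gene AT2G20635, with a Mad3-BUB1 domain as found in spindle checkpoint proteins, had 73.9, 22 and 51.4 FPKM in Zy24, against 0.27, 0 and 0 FPKM in Zy14 (log2 change 5.37 ± 0.47, adjusted p = 7.29e-07). EXL3, an EXORDIUM-like protein, had 157, 194 and 211 FPKM in Zy24, against 2.66, 5.88 and 0 FPKM in Zy14 (log2 change 5.99 ± 0.47, adjusted p = 2.57e-07).

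Of 18 tested genes of the zygote polarity and YODA pathway list 3 rose and 4 fell, shares close to the 16.2% and 21.6% of all tested genes, with a median log2 change of -0.36, and the summed FPKM was 1399, 1662 and 1755 FPKM in Zy24, against 1787, 1763 and 1263 FPKM in Zy14. SSP, the upstream activator of YODA, had 23.9, 29 and 34.3 FPKM in Zy24, against 60.1, 55.7 and 15.5 FPKM in Zy14. The Zy24 values lie inside the Zy14 range, and the change of -0.37 ± 0.41, adjusted p = 0.478 was not called. YDA itself had 41.6, 52 and 49.6 FPKM in Zy24, against 71.8, 65.4 and 50.9 FPKM in Zy14 (log2 change -0.38 ± 0.27, adjusted p = 0.254), and was not called. Below it, MKK4 had 42.7, 51.4 and 59.8 FPKM in Zy24, against 146, 169 and 87 FPKM in Zy14 and fell (log2 change -1.33 ± 0.25, adjusted p = 0.000609), while its close relative MKK5 was not called (-0.3, adjusted p = 0.429). MPK3, a terminal kinase, had 19.8, 18.3 and 24.8 FPKM in Zy24, against 106, 98.5 and 202 FPKM in Zy14 and fell (log2 change -2.57 ± 0.37, adjusted p = 6.29e-05), while MPK6 was not called (-0.35, adjusted p = 0.419). Whether MKK4 differs from MKK5, or MPK3 from MPK6, was not tested. The receptor kinase ER also fell (log2 change -1.54 ± 0.26, adjusted p = 0.000239).

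Among the transcription factors of this list, WOX8, a regulator of the basal lineage, was not called, with 394, 407 and 444 FPKM in Zy24, against 394, 463 and 284 FPKM in Zy14 (log2 change 0.15 ± 0.28, adjusted p = 0.683). The ages overlap, as they do for HDG11, a homeodomain factor, with 14.2, 30.6 and 35.6 FPKM in Zy24, against 38.5, 32.8 and 26.4 FPKM in Zy14 (log2 change -0.35 ± 0.31, adjusted p = 0.369). WRKY2, an activator of WOX8, had a log2 change of 0.33 ± 0.26, adjusted p = 0.303, and was not called. HB-3, the gene also known as WOX9, had 175, 232 and 276 FPKM in Zy24, against 115, 111 and 18.4 FPKM in Zy14 and rose (log2 change 1.83 ± 0.48, adjusted p = 0.00599). Zy14 replicate 3 was low for this gene, and without it the log2 change was 0.98, under the threshold, while a fit to the 6 libraries alone gave an adjusted p of 0.0518. HDG12 rose as well (146, 169 and 177 FPKM in Zy24, against 90.4, 90.2 and 58.7 FPKM in Zy14, log2 change 1.05 ± 0.18, adjusted p = 0.000283), no longer called without Zy14 replicate 3 (0.85), without Zy24 replicate 3 (1.0), or with equal FPKM sums (0.92), median of ratios scaling (0.96) or quantile normalization (1.0). HDG2, a homeodomain factor of the epidermis, fell (0, 0.49 and 0 FPKM in Zy24, against 9.88, 5.26 and 11.7 FPKM in Zy14, log2 change -3.06 ± 0.34, adjusted p = 6.73e-06). RKD4, an RWP-RK factor needed for early embryo patterning, had 259, 239.8 and 228 FPKM in Zy24, against 569.9, 489 and 333 FPKM in Zy14. All 3 Zy24 values were below the Zy14 values, and the change of -0.9 ± 0.24, adjusted p = 0.00605, missed the log2 threshold, which it passed without Zy14 replicate 3 (-1.12), with equal FPKM sums (-1.03) and with quantile normalization (-1.24).

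Of 9 tested embryo identity genes 4 rose and 1 fell, where 16.2% and 21.6% of all tested genes did. LEC2, a B3 factor that confers embryonic competence, had 245, 194 and 218 FPKM in the Zy24 libraries, against 25.7, 34.6 and 23.9 FPKM in the Zy14 libraries (log2 change 2.93 ± 0.29, adjusted p = 2.34e-06). The lowest Zy24 library was several times the highest Zy14 library. LEC1, a CCAAT-binding subunit, had 355, 584 and 509 FPKM in Zy24, against 248, 306 and 143 FPKM in Zy14 (log2 change 1.09 ± 0.23, adjusted p = 0.00138), no longer called without Zy14 replicate 3 (0.78), without Zy24 replicate 2 (0.94), or under any of the other scalings, equal FPKM sums (0.96), median of ratios (1.0) and quantile normalization (0.93). The related subunit NF-YB6 went the other way, listed at 0 in Zy24 against 13.4, 16.7 and 43.4 FPKM in Zy14 (adjusted p = 6.59e-06).

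All 5 genes for the canonical histone H3.1, which is deposited during DNA replication, rose, where 16.2% of all tested genes did, with a median log2 change of 3.47 against -0.07 over all tested genes. Their summed FPKM was 778, 971 and 702 FPKM in Zy24, against 86.7, 79.6 and 140.4 FPKM in Zy14. Replacement histone H3.3, which is deposited outside replication, rose in 2 of 3 genes, with a median of 1.14. Of 12 histone H2A genes 7 rose and 1 fell, and of 5 histone H2B genes 2 rose. Histone genes of a class are near-identical copies, and how the reads were shared among them is uncertain for single genes.

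Upstream sequences of histone genes carry a known octamer, CGCGGATC, tied to expression in S phase. It was searched on both strands in the 250 bases before the start of each gene annotated by RefSeq on the TAIR10.1 build, and its matches shared no bases with those of the other motifs searched. The windows shown are of 5 histone genes with the octamer and 1 without, picked from the called H3.1 and H2A genes. Other called genes of these classes without the octamer are not shown, and not every H2A window with the octamer is shown. The capitals mark the octamer or, where it lies on the other strand, its reverse complement GATCCGCG, and all sequences run 5′ to 3′ on the strand of the gene. The H3.1 gene AT1G09200 (chr1:2972335-2972584, minus strand) holds it at 90 and again at 19 bases before the start, AT5G10400 (chr5:3270958-3271207, minus strand) at 120 and AT5G65360 (chr5:26120582-26120831, minus strand) at 126. The H2A gene HTA6 (chr5:24116221-24116470, minus strand) holds it at 116 and HTA13 (chr3:7229140-7229389, plus strand) at 68. The H3.1 gene AT5G10390 (chr5:3269595-3269844, minus strand) holds no match in this window.
AT1G09200: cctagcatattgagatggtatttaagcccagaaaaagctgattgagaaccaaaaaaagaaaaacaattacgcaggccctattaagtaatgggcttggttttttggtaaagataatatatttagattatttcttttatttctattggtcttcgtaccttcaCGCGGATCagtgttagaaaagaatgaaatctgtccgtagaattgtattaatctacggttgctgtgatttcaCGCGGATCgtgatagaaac
AT5G10400: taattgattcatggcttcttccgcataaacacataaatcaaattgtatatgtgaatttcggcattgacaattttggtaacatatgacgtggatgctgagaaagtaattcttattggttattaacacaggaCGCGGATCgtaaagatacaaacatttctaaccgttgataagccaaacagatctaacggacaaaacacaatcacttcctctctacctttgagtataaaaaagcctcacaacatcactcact
AT5G65360: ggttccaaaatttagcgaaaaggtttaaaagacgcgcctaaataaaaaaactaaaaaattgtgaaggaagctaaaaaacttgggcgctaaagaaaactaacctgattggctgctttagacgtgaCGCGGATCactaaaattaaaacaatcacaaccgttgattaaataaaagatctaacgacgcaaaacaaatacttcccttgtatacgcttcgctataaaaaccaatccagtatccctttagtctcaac
HTA6: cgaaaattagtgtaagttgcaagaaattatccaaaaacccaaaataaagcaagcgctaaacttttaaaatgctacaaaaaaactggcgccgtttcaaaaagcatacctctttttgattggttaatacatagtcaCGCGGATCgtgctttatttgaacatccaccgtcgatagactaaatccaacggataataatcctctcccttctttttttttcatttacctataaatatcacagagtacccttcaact
HTA13: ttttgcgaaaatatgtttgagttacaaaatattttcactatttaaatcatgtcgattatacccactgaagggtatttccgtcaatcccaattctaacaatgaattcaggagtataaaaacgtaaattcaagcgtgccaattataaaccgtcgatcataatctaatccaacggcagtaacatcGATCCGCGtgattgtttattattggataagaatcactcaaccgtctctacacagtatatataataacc
AT5G10390: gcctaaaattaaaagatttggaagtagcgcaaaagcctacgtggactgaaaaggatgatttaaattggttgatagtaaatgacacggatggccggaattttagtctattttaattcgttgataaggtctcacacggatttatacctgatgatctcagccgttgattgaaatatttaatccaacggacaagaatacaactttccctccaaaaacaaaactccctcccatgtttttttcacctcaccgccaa

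The octamer was in 0.406% of 2953 windows of genes called higher, in 0.0763% of 3933 windows of genes called lower and in 0.164% of all 18280 windows, which comes to 12, 3 and 30 windows. It stood in 3 of 5 H3.1 windows, 3 of 12 H2A windows, 1 of 3 H3.3 windows and 0 of 5 H2B windows. A match is a description of the letters and no evidence of a bound site.

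The H3.1 genes whose windows hold no octamer, AT5G10390 and AT3G27360, had the largest and the smallest change of the class. AT5G10390 had 103, 176 and 109 FPKM in the Zy24 libraries, against 2.08, 1.29 and 0 FPKM in the Zy14 libraries (log2 change 6.04 ± 0.5, adjusted p = 4.19e-07). AT5G10400 had 158, 196 and 133 FPKM in Zy24, against 15.1, 17.9 and 2.38 FPKM in Zy14 (log2 change 4.0 ± 0.51, adjusted p = 2.17e-05). AT1G09200, with the octamer at both places, had 323, 367 and 298 FPKM in Zy24, against 27.8, 15.3 and 55.1 FPKM in Zy14 (log2 change 3.47 ± 0.55, adjusted p = 0.00014). In AT5G10400 and AT1G09200 the ages did not overlap. AT5G65360 had 78.8, 124 and 87.7 FPKM in Zy24, against 7.97, 9.74 and 7.09 FPKM in Zy14 (log2 change 3.39 ± 0.49, adjusted p = 6.63e-05). The fifth, AT3G27360, had 115, 109 and 74.2 FPKM in Zy24, against 33.7, 35.3 and 75.8 FPKM in Zy14 (log2 change 1.11 ± 0.28, adjusted p = 0.00509), with Zy14 replicate 3 inside the Zy24 range. Its call was lost without Zy14 replicate 1 (0.9), Zy14 replicate 2 (0.94) or Zy24 replicate 1 (0.99), and with equal FPKM sums (0.98).

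Histone H2A variants of several kinds rose. HTA6, an H2A.W of heterochromatin, had 144, 298 and 198 FPKM in Zy24, against 12, 23.1 and 20.7 FPKM in Zy14 (log2 change 3.44 ± 0.29, adjusted p = 4.39e-07). HTA13, a canonical H2A, had 58, 43.4 and 33 FPKM in Zy24, against 10.6, 4.68 and 11.3 FPKM in Zy14 (log2 change 2.26 ± 0.35, adjusted p = 0.000112). HTA8 and HTA9, both H2A.Z like HTA11, had log2 changes of 2.39 ± 0.22, adjusted p = 1.03e-06, and 1.8 ± 0.18, adjusted p = 2.04e-06. HTB2, an H2B gene, had 183, 512 and 344 FPKM in Zy24, against 32.6, 47.5 and 26.1 FPKM in Zy14 (log2 change 3.18 ± 0.34, adjusted p = 4.16e-06). Zy24 replicate 2 was the highest library for HTA6 and HTB2, and no Zy24 library overlapped a Zy14 library in either. HTA12, an H2A.W, fell instead (0, 1.88 and 0 FPKM in Zy24, against 2.42, 4.42 and 13.5 FPKM in Zy14, log2 change -2.18 ± 0.57, adjusted p = 0.00575), a call lost at a pseudocount of 5 (-0.97).

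Of 30 tested replication licensing and fork genes 5 rose and 5 fell, where 16.2% and 21.6% of all tested genes did. The median log2 change was 0.1. MCM10, a helicase-loading partner, had 18, 15.8 and 20 FPKM in Zy24, against 5.34, 6.25 and 2.8 FPKM in Zy14 and rose (log2 change 1.75 ± 0.28, adjusted p = 0.000158). ORC2, a subunit of the origin recognition complex, had 20.7, 10 and 19.3 FPKM in Zy24, against 55.8, 70 and 42.9 FPKM in Zy14 and fell (log2 change -1.73 ± 0.27, adjusted p = 0.000124). MCM3, a subunit of the replicative helicase, had 6.92, 9.68 and 9.54 FPKM in Zy24, against 47.5, 56.5 and 19 FPKM in Zy14 and fell as well (log2 change -1.99 ± 0.4, adjusted p = 0.00102). Matches to 4 E2F sequences (TTTCCCGC, TTTGGCGC, TTTGCCGC and TTTCGCGC) were in 1.93% of the windows of genes called higher, 1.75% of those called lower and 1.58% of all, and in 10 of the 30 windows of the replication list.

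Of 38 tested kinetochore, spindle and anaphase genes 15 rose and 2 fell, where 16.2% and 21.6% of all tested genes did. Their summed FPKM was 1243, 1333 and 1333 FPKM in Zy24, against 795, 870 and 792 FPKM in Zy14. The kinetochore gene AT3G48210 had 77.4, 99.7 and 86.1 FPKM in Zy24, against 14.6, 23.3 and 14.9 FPKM in Zy14 (log2 change 2.28 ± 0.19, adjusted p = 3.88e-07). AT3G05830, described as a spindle pole body component-like protein, had 24.3, 22.5 and 27.7 FPKM in Zy24, against 1.57, 1.93 and 2.03 FPKM in Zy14 (log2 change 3.18 ± 0.24, adjusted p = 1.63e-07). AUR1, an Aurora kinase of the spindle, had 27.8, 88.5 and 81.5 FPKM in Zy24, against 2.5, 1.18 and 2.57 FPKM in Zy14 (log2 change 4.31 ± 0.42, adjusted p = 1.93e-06). In each of these 3 genes, named for their large changes, the lowest Zy24 library was several times the highest Zy14 library. MYB3R-4, a transcription factor that activates genes of G2 and mitosis, had 14.1, 25.8 and 23.7 FPKM in Zy24, against 1.3, 1.93 and 0.78 FPKM in Zy14 (log2 change 3.23 ± 0.35, adjusted p = 4.44e-06).

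One Zy24 library differed from its partners for the latest of these genes. B-type cyclins, which drive entry into mitosis, summed to 118, 455 and 418 FPKM in Zy24, against 91.2, 98.2 and 79.1 FPKM in Zy14, and 2 of 10 rose, with a median of 1.76, while without Zy24 replicate 1 the count was 7. CYCB1;3 had 0.12, 49.5 and 44.2 FPKM in the Zy24 libraries and was listed at 0 in the Zy14 libraries (adjusted p = 0.00775). KNOLLE, the syntaxin of the cell plate listed as SYP111, had 0.03, 88.5 and 80 FPKM in Zy24, against 0, 0 and 1.5 FPKM in Zy14 (log2 change 3.85 ± 1.24, adjusted p = 0.0187). In both genes Zy24 replicate 1 sat with the Zy14 libraries, and the KNOLLE call was lost without any one of Zy14 replicate 1 (3.63), Zy14 replicate 2 (3.63), Zy24 replicate 2 (2.75) and Zy24 replicate 3 (2.82), and in a fit to the 6 libraries alone (adjusted p = 0.0866). Without Zy14 replicate 1 and Zy24 replicate 3 together both calls were lost, with an adjusted p of 0.0852 for CYCB1;3 and 0.188 for KNOLLE. CYCB2;3 had 34.7, 71.8 and 57.7 FPKM in Zy24, against 18.5, 23.9 and 7.59 FPKM in Zy14 (log2 change 1.73 ± 0.38, adjusted p = 0.00176). The A-type cyclin CYCA3;1 had 64.8, 50.3 and 67.7 FPKM in Zy24, against 3.41, 3.57 and 4.62 FPKM in Zy14 (log2 change 3.67 ± 0.47, adjusted p = 2.47e-05), with replicate 1 level with its partners. D-type cyclins, which act before S phase, split into 2 that rose and 3 that fell. Over all tested genes 16.2% rose and 21.6% fell. CYCD3;2 rose (158, 179.8 and 207 FPKM in Zy24, against 72, 83.9 and 66.3 FPKM in Zy14, log2 change 1.28 ± 0.14, adjusted p = 4.73e-06), and CYCD5;1 fell (8.49, 18.9 and 16 FPKM in Zy24, against 97.7, 134 and 129 FPKM in Zy14, log2 change -3.02 ± 0.25, adjusted p = 4.39e-07).

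The mitosis-specific activator (MSA) core CNAACGG, a sequence bound by MYB3R factors, is shown for CYCB1;3 because this gene was listed at 0 in all Zy14 libraries. The window before its start (chr3:3627274-3627523, minus strand, RefSeq on TAIR10.1) holds 2 matches, at 64 and 41 bases before the start, and the capitals mark them.
CYCB1;3: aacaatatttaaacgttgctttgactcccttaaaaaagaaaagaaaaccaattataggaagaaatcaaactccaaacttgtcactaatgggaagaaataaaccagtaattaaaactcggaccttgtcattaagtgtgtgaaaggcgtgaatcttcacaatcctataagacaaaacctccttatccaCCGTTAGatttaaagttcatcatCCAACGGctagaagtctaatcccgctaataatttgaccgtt

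The MSA core stood in 6 of 10 B-type cyclin windows and in 12 of 43 kinesin windows, but in 1 of 38 windows of the kinetochore, spindle and anaphase list. It also stood in 3 of 5 H3.1 and 4 of 12 H2A windows. Over genes called higher it stood in 5.96% of windows, over those called lower in 5.03% and over all in 5.34%.

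Of 12 cytokinesis and division plane genes 5 rose and 1 fell, where 16.2% and 21.6% of all tested genes did. TON1B, which is needed for the preprophase band that marks the coming division plane, had 69.8, 45.4 and 53.7 FPKM in Zy24, against 13.5, 25.9 and 16.2 FPKM in Zy14 (log2 change 1.58 ± 0.23, adjusted p = 7.42e-05). POK1, a kinesin that keeps the memory of that plane, had 8.82, 6.88 and 9.27 FPKM in Zy24, against 0.5, 0 and 0.09 FPKM in Zy14 (log2 change 2.98 ± 0.33, adjusted p = 5.78e-06). The microtubule bundler PLE had 9.32, 19.6 and 20.4 FPKM in Zy24, against 25.8, 32.8 and 43.1 FPKM in Zy14 and fell (log2 change -1.05 ± 0.32, adjusted p = 0.014), no longer called without Zy14 replicate 3 (-0.86) or Zy24 replicate 1 (-0.7), at a pseudocount of 5 (-0.88) or in a fit to the 6 libraries alone (adjusted p = 0.0523).

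**Figure D2:**
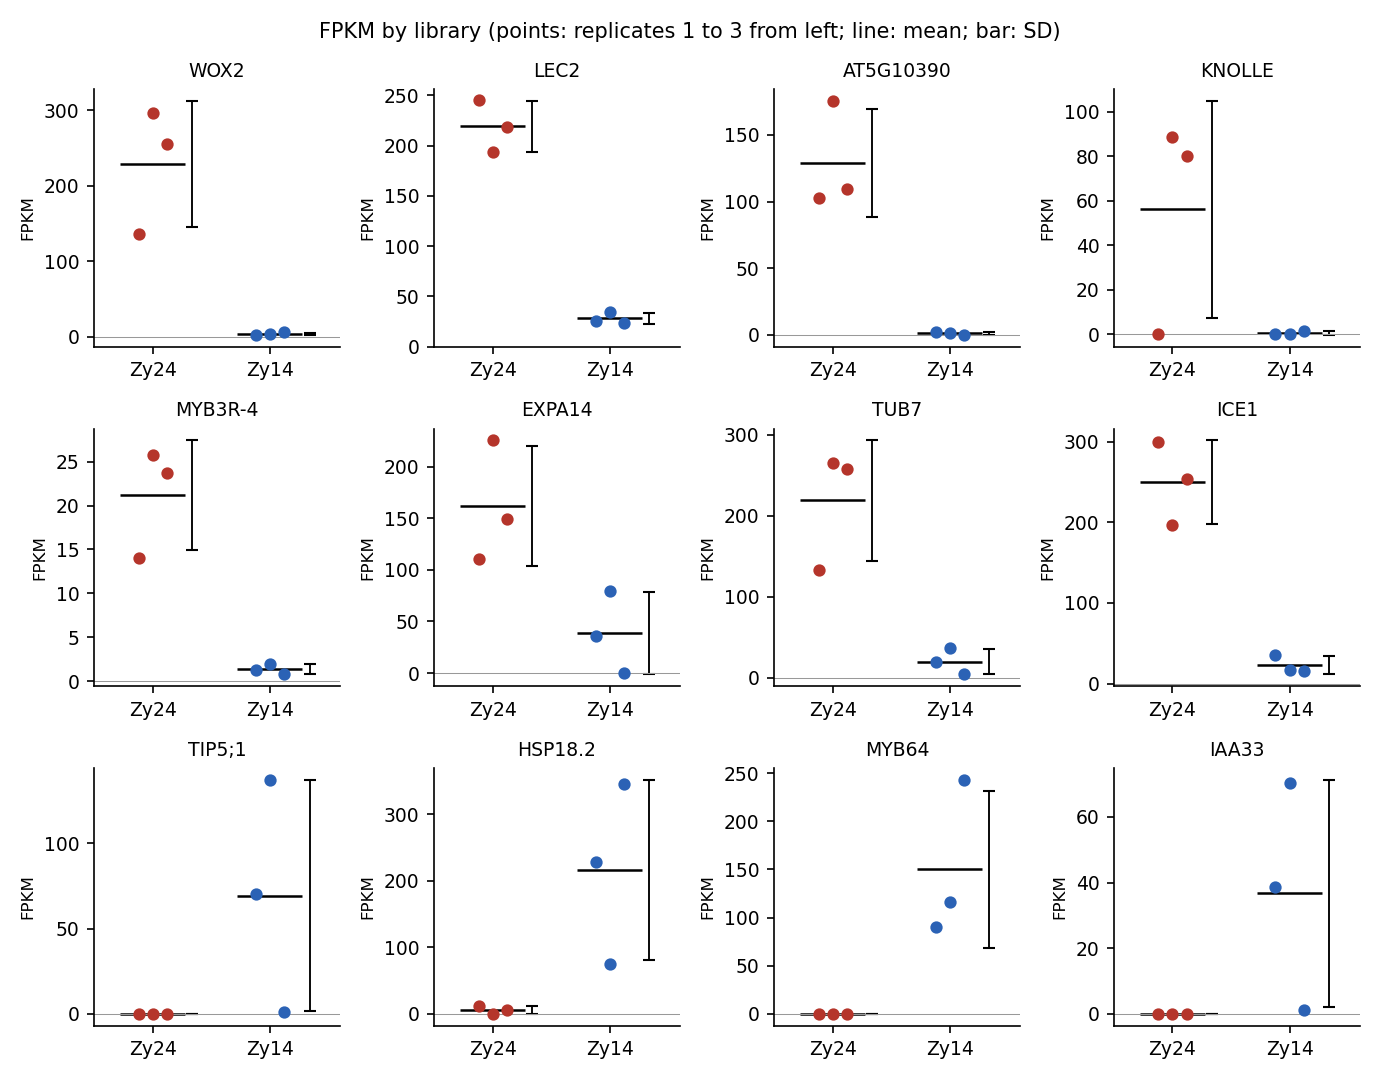
FPKM of 12 genes in each library, with Zy24 in red left of Zy14 in blue; points are replicates 1 to 3 from left to right, lines the means and bars the SD of 3 libraries. KNOLLE is near 0 in Zy24 replicate 1 and above 80 FPKM in the other Zy24 libraries, while WOX2, LEC2 and AT5G10390 separate the ages in every library and EXPA14, TIP5;1 and IAA33 are low in Zy14 replicate 3.

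Of 14 tested tubulin genes 7 rose and 0 fell, where 16.2% and 21.6% of all tested genes did. Their summed FPKM was 2108, 2984 and 3008 FPKM in Zy24, against 1263, 1489 and 1197 FPKM in Zy14. TUA2 had 279.8, 411 and 403 FPKM in Zy24, against 79.7, 97.4 and 85 FPKM in Zy14 (log2 change 2.03 ± 0.18, adjusted p = 9.67e-07). TUB7 had 133, 265 and 258 FPKM in Zy24, against 19.3, 36.4 and 4.58 FPKM in Zy14 (log2 change 3.7 ± 0.48, adjusted p = 2.43e-05). Every Zy24 library exceeded every Zy14 library in both genes and in the sum. Tubulin and actin genes are close paralogues, so the share of reads given to each is uncertain. Of 43 kinesin genes 15 rose and 2 fell, with a median log2 change of 0.84, and the summed FPKM was 946, 980.3 and 1069 FPKM in Zy24, against 578, 598 and 585 FPKM in Zy14. ATK1, a minus-end directed motor of the spindle, had 20.2, 20.6 and 16.8 FPKM in Zy24, against 0.88, 0 and 0 FPKM in Zy14 (log2 change 4.03 ± 0.39, adjusted p = 1.7e-06), and the related ATK5 also rose (2.63, adjusted p = 2.5e-06). KP1 had 4.34, 2.37 and 3.68 FPKM in Zy24, against 28.7, 47.8 and 53.2 FPKM in Zy14 and fell (log2 change -3.29 ± 0.29, adjusted p = 7.08e-07). Its egg cell mean was 149 FPKM, above both zygote ages. Of 8 actin genes 2 rose and 1 fell. ACT2 had 141, 200.2 and 199 FPKM in Zy24, against 26.7, 34.5 and 41 FPKM in Zy14 (log2 change 2.37 ± 0.24, adjusted p = 2.58e-06). Of 8 actin depolymerizing factors, which sever filaments, 2 rose, ADF9 (465, 561 and 476 FPKM in Zy24, against 95.1, 155 and 26 FPKM in Zy14, log2 change 2.76 ± 0.45, adjusted p = 0.000176) and ADF6 (159, 129.8 and 125 FPKM in Zy24, against 44.6, 59.6 and 25.2 FPKM in Zy14, log2 change 1.73 ± 0.28, adjusted p = 0.000152).

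Expansins, which loosen the wall in acid, rose in 5 of 16 tested members and fell in 2, and their summed FPKM was 235, 415 and 299 FPKM in Zy24, against 99.8, 140.1 and 34.4 FPKM in Zy14. The sum was lowest in Zy14 replicate 3. Among all tested genes 16.2% rose and 21.6% fell. EXPA14 had 111, 226 and 149 FPKM in the Zy24 libraries, against 36, 79.6 and 0 FPKM in the Zy14 libraries (log2 change 3.44 ± 1.06, adjusted p = 0.0154), a call lost without Zy24 replicate 2 (3.17) and in a fit to the 6 libraries alone (adjusted p = 0.0862). EXPA13 had 20.6, 24.9 and 26 FPKM in Zy24, against 3.53, 2.4 and 6.39 FPKM in Zy14 (log2 change 2.35 ± 0.34, adjusted p = 6.29e-05). EXPA9 had 69.7, 76.6 and 92.5 FPKM in Zy24, against 27.4, 30.6 and 5.29 FPKM in Zy14 (log2 change 2.17 ± 0.45, adjusted p = 0.00128). Every Zy24 library was well above every Zy14 library for EXPA13 and EXPA9. Xyloglucan endotransglucosylases/hydrolases, which cut and rejoin the hemicellulose xyloglucan, had 4 falls and 2 rises among 14. Neither rise was called without Zy14 replicate 1 and Zy24 replicate 3. XTH11 had 0, 0.12 and 0.07 FPKM in Zy24, against 30.2, 36.7 and 22.9 FPKM in Zy14 (log2 change -4.84 ± 0.45, adjusted p = 1.19e-06), so that it was near 0 in every Zy24 library.

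Of 47 tested pectin methylesterases and their inhibitors 15 rose and 12 fell, where 16.2% and 21.6% of all tested genes did. The summed FPKM separated the ages, with 1192, 1509 and 1289 FPKM in Zy24, against 587, 573 and 574 FPKM in Zy14. AT1G09370, a predicted inhibitor of invertase or pectin methylesterase, was a large part of the sum, with 515, 918 and 719 FPKM in the Zy24 libraries, against 101, 197 and 43.4 FPKM in the Zy14 libraries (log2 change 2.86 ± 0.48, adjusted p = 0.000223). Among 45 pectin lyase-like genes, 6 rose and 12 fell. QRT2, a polygalacturonase known from the separation of pollen tetrads, had 0.05, 0 and 0 FPKM in Zy24, against 47.6, 83.1 and 79.4 FPKM in Zy14 and fell (log2 change -6.09 ± 0.27, adjusted p = 5.78e-10).

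Of 21 cellulose synthases and relatives 3 rose and 6 fell, where 16.2% and 21.6% of all tested genes did. The CSLD members, which make wall polymer at growing tips of root hairs, differed from each other. CSLD2 had 14.2, 14.1 and 18.6 FPKM in Zy24, against 5.26, 4.65 and 6.06 FPKM in Zy14 and rose (log2 change 1.39 ± 0.24, adjusted p = 0.000239, or 0.99 and not called at a pseudocount of 5), while CSLD3 had 0.39, 2.42 and 0.43 FPKM in Zy24, against 21.4, 19.8 and 21 FPKM in Zy14 and fell (log2 change -3.52 ± 0.33, adjusted p = 1.3e-06). CESA6, a subunit for primary walls, had 34.5, 16.1 and 28.4 FPKM in Zy24, against 14.8, 11.4 and 3.17 FPKM in Zy14 and rose (log2 change 1.48 ± 0.44, adjusted p = 0.012), no longer called without Zy14 replicate 3 (0.9) or in a fit to the 6 libraries alone (adjusted p = 0.0629). IRX1, a subunit for secondary walls, had 0.17, 0.03 and 0 FPKM in Zy24, against 6.57, 8.27 and 9.25 FPKM in Zy14 and fell (log2 change -3.07 ± 0.23, adjusted p = 1.84e-07). Arabinogalactan proteins, glycoproteins of the cell surface, rose in 10 and fell in 11 of 37 tested genes, and their summed FPKM was 3201, 3317 and 3048 FPKM in Zy24, against 1460, 1723 and 1426 FPKM in Zy14. AGP1 was a large part of that sum, with 2091, 2207 and 2027 FPKM in Zy24, against 846, 915 and 702 FPKM in Zy14 (log2 change 1.37 ± 0.33, adjusted p = 0.00361). AGP31 had 34.4, 33 and 31.9 FPKM in Zy24, against 0.09, 0 and 0.38 FPKM in Zy14 (log2 change 4.89 ± 0.21, adjusted p = 3.87e-10). FLA12, of the fasciclin-like kind, had 30, 36.1 and 30.8 FPKM in Zy24, against 0.52, 0.76 and 0 FPKM in Zy14 (log2 change 4.58 ± 0.33, adjusted p = 1.06e-07). SOS5, also fasciclin-like and known from cell expansion in roots, had 75, 71.3 and 81.7 FPKM in Zy24, against 11.9, 18.4 and 13.3 FPKM in Zy14 (log2 change 2.33 ± 0.21, adjusted p = 8.82e-07). Quantile normalization gave 14 rises and 5 falls for this list.

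Of 15 tested aquaporins, the channels that let water cross membranes, 6 fell and 0 rose, with a summed FPKM of 164, 223 and 220.1 FPKM in Zy24, against 270.1, 297 and 224 FPKM in Zy14. Under quantile normalization 2 of them rose. Over all tested genes 21.6% fell and 16.2% rose. PIP2B, of the plasma membrane, had 0.17, 0 and 0 FPKM in Zy24, against 21.3, 23.6 and 35 FPKM in Zy14 (log2 change -4.68 ± 0.36, adjusted p = 1.87e-07). TIP5;1, of the vacuole type, was listed at 0 in Zy24, against 70.2, 137 and 1.09 FPKM in Zy14 (adjusted p = 0.00554, or 0.0607 and not called without Zy14 replicate 1 and Zy24 replicate 3). Subunits of the vacuolar ATPase, the proton pump that energizes the vacuole, rose in 4 of 15 tested genes and fell in none, with a summed FPKM of 2141, 2117 and 2170 FPKM in Zy24, against 1521, 1612 and 1474 FPKM in Zy14. AVA-P4, a subunit of the membrane ring, had 197, 260.1 and 226 FPKM in Zy24, against 50.6, 56.5 and 33 FPKM in Zy14 (log2 change 2.29 ± 0.26, adjusted p = 7.3e-06). VAG2, a stalk subunit, had 83.5, 91.7 and 74 FPKM in Zy24, against 22.3, 24.9 and 25.1 FPKM in Zy14 (log2 change 1.74 ± 0.22, adjusted p = 1.94e-05). Every Zy24 library was above every Zy14 library in the sum and in both subunits.

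Of 10 tested ROP GTPases, which set polar domains at the plasma membrane, 6 rose and 1 fell, with a median log2 change of 1.7 and a summed FPKM of 396, 378 and 382 FPKM in Zy24, against 139, 162 and 156 FPKM in Zy14. ARAC5 had 61.8, 47.9 and 60.7 FPKM in the Zy24 libraries, against 4.03, 3.36 and 6.47 FPKM in the Zy14 libraries (log2 change 3.39 ± 0.23, adjusted p = 4.98e-08). ROP2, known from root hair and pavement cell shape, had 31.4, 61.9 and 46.5 FPKM in Zy24, against 3.24, 7 and 8.32 FPKM in Zy14 (log2 change 2.75 ± 0.3, adjusted p = 5.22e-06). RAC10 had 13.1, 18.9 and 21.2 FPKM in Zy24, against 2.48, 3.11 and 0 FPKM in Zy14 (log2 change 2.92 ± 0.43, adjusted p = 7.74e-05). In each of the 3 genes the Zy24 libraries stood above all Zy14 libraries. ROP1, the pollen tube member, had 0, 0.16 and 0 FPKM in Zy24, against 3.3, 8.9 and 0.32 FPKM in Zy14 and fell (log2 change -1.87 ± 0.56, adjusted p = 0.0136), no longer called without Zy14 replicate 2 (-1.18), without Zy14 replicate 1 and Zy24 replicate 3 (-1.75), at a pseudocount of 5 (-0.75) or with quantile normalization (-1.31). Of 36 Rab GTPases, which direct vesicles, 10 rose and 3 fell, with a median of 0.49. Among all tested genes 16.2% rose and 21.6% fell. The RABA class, of the route from the trans-Golgi network to the surface and the cell plate, held RABA1b (53.8, 85.1 and 77.5 FPKM in Zy24, against 6.69, 6.3 and 7.03 FPKM in Zy14, log2 change 3.23 ± 0.25, adjusted p = 2.18e-07) and RABA4B (83.5, 69.8 and 85.6 FPKM in Zy24, against 10.4, 12.9 and 13.2 FPKM in Zy14, log2 change 2.62 ± 0.28, adjusted p = 5.2e-06). RABA2b, of the same class, was listed at 0 in Zy24, against 24.2, 25 and 21.4 FPKM in Zy14 (adjusted p = 8.41e-09).

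**Figure D3:**
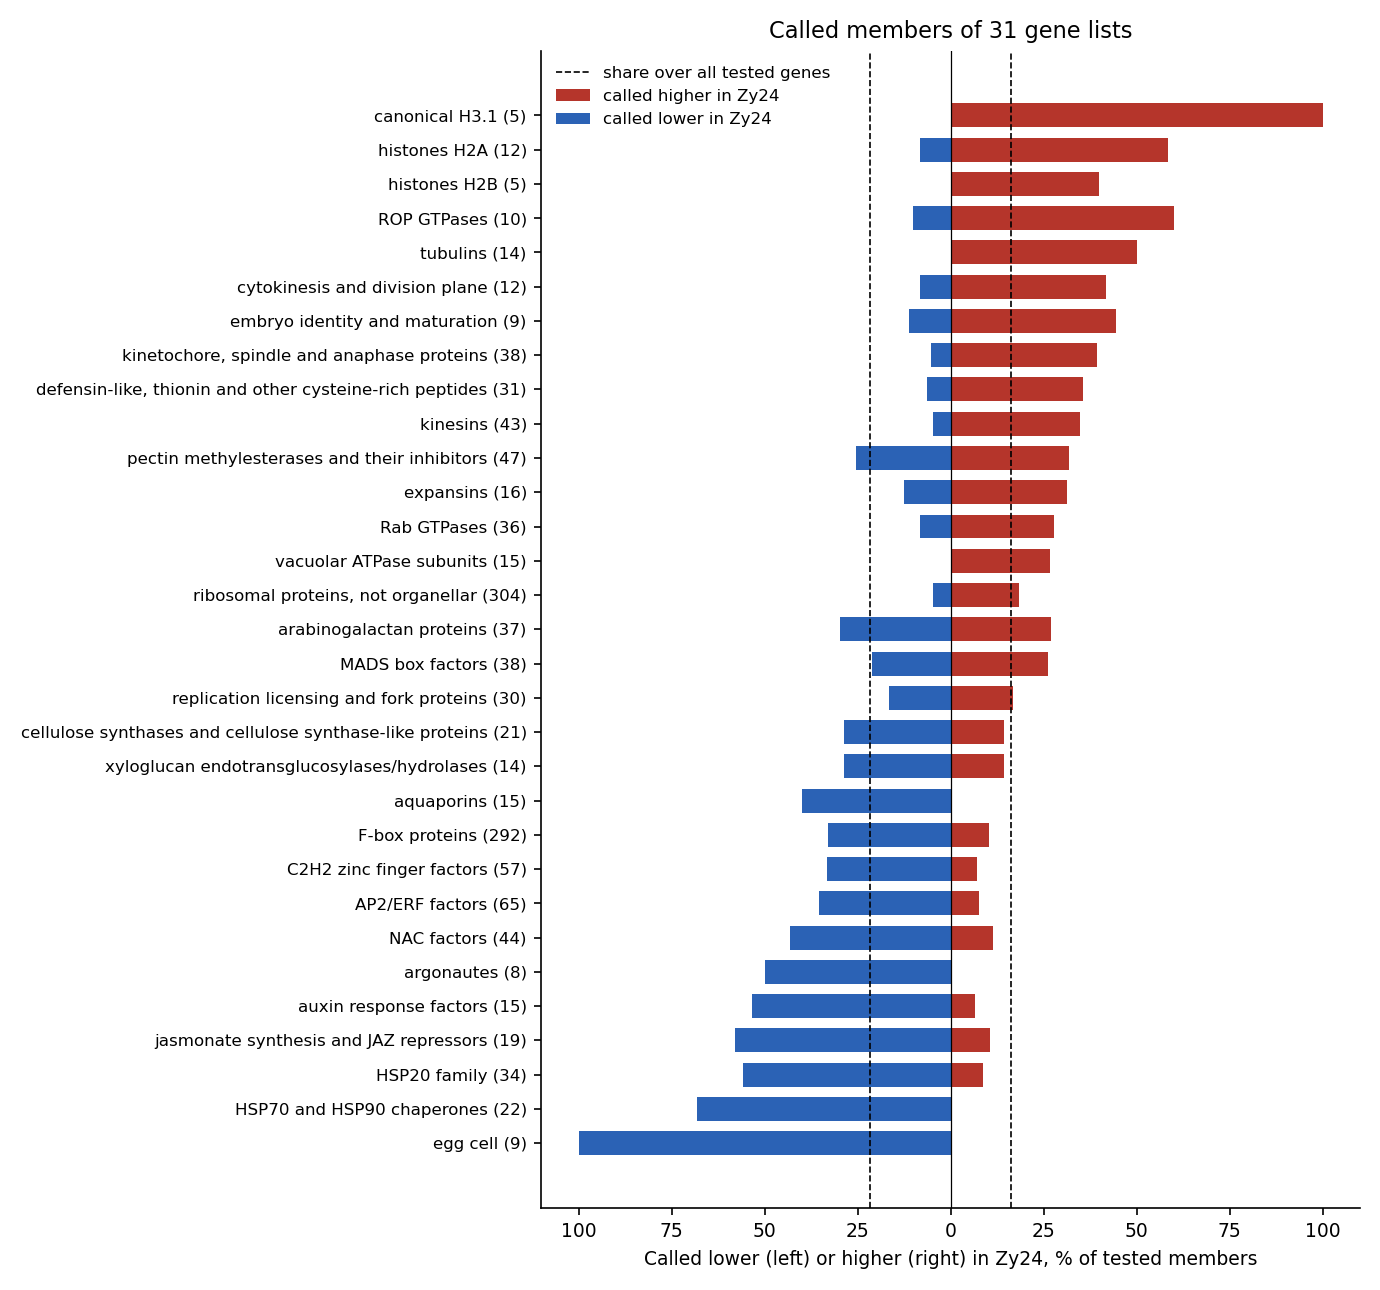
For 31 gene lists, the share of tested members called lower in Zy24 runs to the left in blue and the share called higher to the right in red, in %, with the number of tested members in brackets. Dashed lines mark the shares over all tested genes, 21.6% lower and 16.2% higher. H3.1 histones, ROP GTPases and tubulins lie far to the right, and HSP70 and HSP90 chaperones, auxin response factors and jasmonate genes far to the left.

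Of 22 tested HSP70 and HSP90 genes 0 rose and 15 fell, with a median log2 change of -1.3, and their summed FPKM was 2892, 2814 and 2980 FPKM in Zy24, against 8305, 6530 and 7212 FPKM in Zy14. All 3 Zy14 sums were far above the Zy24 sums. Among all tested genes 16.2% rose and 21.6% fell. The cytosolic AT3G09440, an HSP70, had 224, 223 and 218 FPKM in Zy24, against 1029, 766 and 895 FPKM in Zy14 (log2 change -2.0 ± 0.24, adjusted p = 1.46e-05). BIP1, of the endoplasmic reticulum, had 68.3, 80.3 and 74.3 FPKM in Zy24, against 288, 236 and 239 FPKM in Zy14 (log2 change -1.76 ± 0.24, adjusted p = 3.57e-05). Hsp89.1, an HSP90 of organelles, had 146, 86.7 and 119 FPKM in Zy24, against 528, 439 and 516 FPKM in Zy14 (log2 change -2.1 ± 0.17, adjusted p = 3.54e-07). The HSP20 family of small heat shock proteins fell in 19 and rose in 3 of 34 tested genes, with a median of -1.7 and a summed FPKM of 1831, 1391 and 1208 FPKM in Zy24, against 5807, 2256 and 6303 FPKM in Zy14. Zy14 replicate 2 held much less of this family than its partners. HSP18.2 shows this spread, with 12.2, 0 and 4.98 FPKM in the Zy24 libraries, against 228, 75.1 and 346 FPKM in the Zy14 libraries (log2 change -5.41 ± 1.0, adjusted p = 0.000494). The heat shock element GAA, TTC and GAA with NN between them was in 0.237% of the windows of genes called higher, 0.686% of those called lower and 0.449% of all. This comes to 7, 27 and 82 windows. The element stood in 2 of 34 HSP20 windows and in 0 of 22 HSP70 and HSP90 windows.

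Of 292 tested F-box genes, which choose substrates for degradation, 96 fell and 30 rose, with a median log2 change of -0.66. Over all tested genes 21.6% fell and 16.2% rose. DAF1 had 27.1, 21 and 17 FPKM in the Zy24 libraries, against 2015, 3360.4 and 46.5 FPKM in the Zy14 libraries (log2 change -4.94 ± 1.07, adjusted p = 0.0016), with Zy14 replicate 3 far below its partners. Subunits of the proteasome, which degrades those substrates, had 2 falls and 1 rise among 30 and a median of 0.02. Cytosolic ribosomal protein genes rose in 56 and fell in 14 of 304, with a median of 0.58. The share that rose was close to the 16.2% of all tested genes, while the share that fell was well below their 21.6%. Without Zy14 replicate 2, which had the highest Zy14 sum of this list, 94 rose. The deadenylases CAF1a and CAF1b, which start mRNA decay, were the 2 falls among 12 mRNA decay genes. This share was below the 21.6% of all tested genes that fell. CAF1a had 9.13, 17.6 and 6.27 FPKM in Zy24, against 116, 127 and 97.1 FPKM in Zy14 (log2 change -3.36 ± 0.54, adjusted p = 0.000167). CAF1b had 4.33, 19.2 and 13.7 FPKM in Zy24, against 334, 207 and 264 FPKM in Zy14 (log2 change -4.51 ± 0.47, adjusted p = 3.94e-06).

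**Figure D4:**
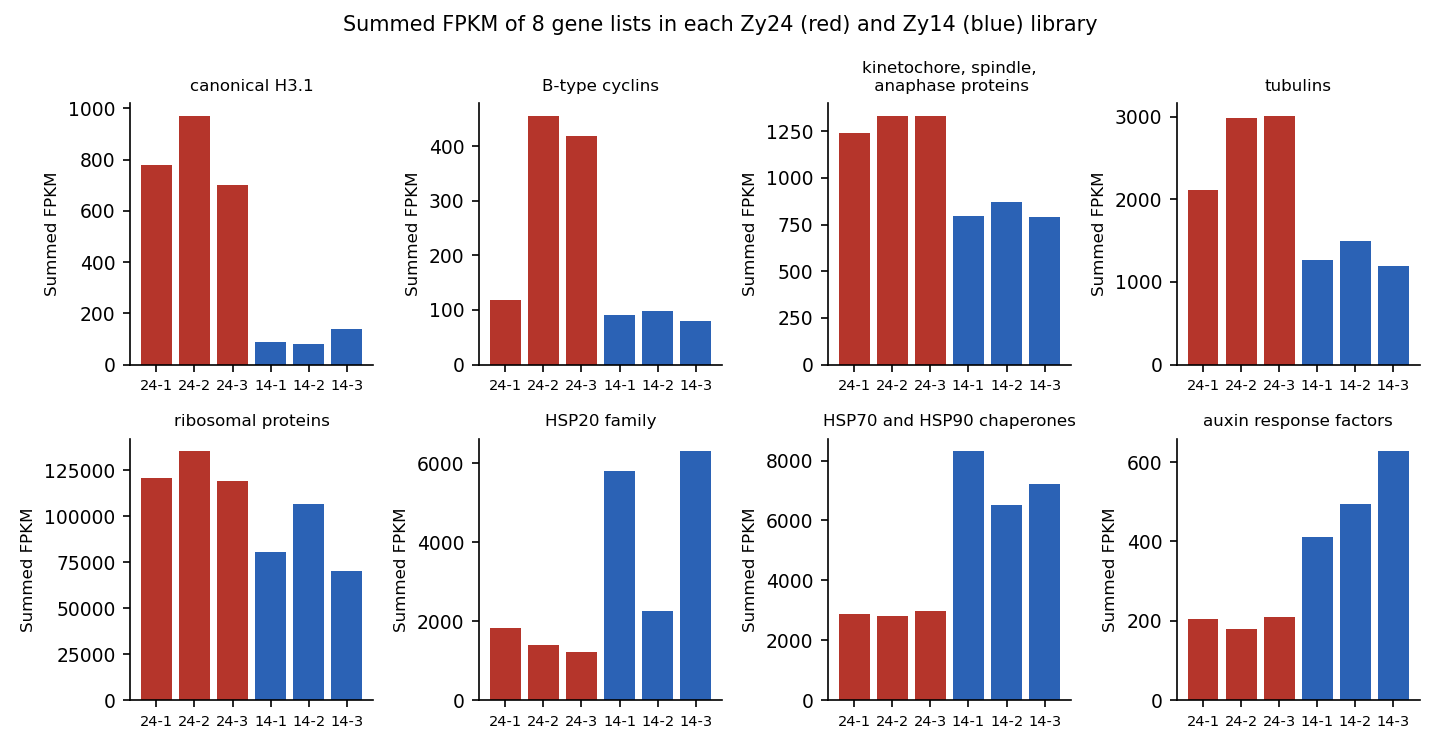
Summed FPKM of 8 gene lists in each library, with the Zy24 libraries in red left of the Zy14 libraries in blue. The sums of H3.1, tubulin and kinetochore and spindle genes are higher in every Zy24 library, those of HSP70 and HSP90 chaperones and auxin response factors are higher in every Zy14 library, and B-type cyclins are low in Zy24 replicate 1.

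The AP2/ERF family of transcription factors, which includes many of stress and hormone responses, fell in 23 and rose in 5 of 65 tested genes (median -1.01), and the NAC family fell in 19 and rose in 5 of 44 (median -0.81). C2H2 zinc finger genes fell in 19 and rose in 4 of 57 (median -0.45), and WRKY genes fell in 14 and rose in 7 of 38 (median -0.74). The bHLH family had 16 falls and 13 rises of 64 (median -0.02). MADS box genes rose in 10 and fell in 8 of 38, and homeobox genes rose in 7 and fell in 8 of 47. Over all tested genes 21.6% fell and 16.2% rose, shares close to those of the bHLH and homeobox genes and of the MADS box falls. MYB64, a MYB factor of female gametophyte cellularization, was listed at 0 in Zy24, against 90.7, 117 and 243 FPKM in Zy14 (adjusted p = 7.89e-09). MYB119, its partner in that process, was listed at 0 too, against 16.8, 22.3 and 61 FPKM in Zy14 (adjusted p = 2.35e-07). Egg cell means of both were higher still, 463 FPKM for MYB64 and 83.9 FPKM for MYB119.

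NAC019, a factor of drought and pathogen responses, had 0.23, 12.7 and 2.77 FPKM in Zy24, against 151, 122 and 70.6 FPKM in Zy14 (log2 change -4.79 ± 0.64, adjusted p = 3.58e-05). MYC2, the central bHLH factor of jasmonate signalling, had 0.08, 0 and 0 FPKM in Zy24, against 12.2, 19.6 and 12.1 FPKM in Zy14 (log2 change -3.9 ± 0.47, adjusted p = 1.24e-05). WRKY18, a regulator of defence, had 0.06, 0 and 0 FPKM in Zy24, against 10.9, 10.5 and 11.4 FPKM in Zy14 (log2 change -3.55 ± 0.32, adjusted p = 7.71e-07). None of these, named for their large changes, had a Zy24 library inside the Zy14 range. W-box cores (TTGACC or TTGACT), the sequence bound by WRKY factors, stood in 27.8% of the windows of genes called higher, 30.0% of those called lower and 28.5% of all. On the rising side, ICE1, a bHLH factor of cold response and stomatal identity, had 300, 197 and 253 FPKM in the Zy24 libraries, against 35.3, 16.4 and 15.7 FPKM in the Zy14 libraries (log2 change 3.5 ± 0.25, adjusted p = 1.21e-07). WRKY39 had 49.9, 26.8 and 40.7 FPKM in Zy24, against 12.3, 3.04 and 6.41 FPKM in Zy14 (log2 change 2.41 ± 0.42, adjusted p = 0.000294). ZFN1, a zinc finger protein, had 34.8, 30.7 and 27.9 FPKM in Zy24, against 3.4, 3.89 and 4.28 FPKM in Zy14 (log2 change 2.73 ± 0.33, adjusted p = 1.33e-05). FLC, the MADS repressor of flowering that is reset in early embryos, had 100.1, 57.1 and 70.6 FPKM in Zy24, against 19.4, 35.1 and 5.49 FPKM in Zy14 and rose (log2 change 2.15 ± 0.55, adjusted p = 0.00521), a call lost at a pseudocount of 0.1 (adjusted p = 0.0716). The MADS gene AT2G41440 had 272, 170.4 and 186 FPKM in Zy24, against 28.4, 36.4 and 47.3 FPKM in Zy14 (log2 change 2.45 ± 0.21, adjusted p = 6.49e-07).

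Of 15 tested auxin response factors, which bind promoters of auxin-regulated genes, 8 fell and 1 rose, with a median log2 change of -1.44 and a summed FPKM of 205, 179 and 209 FPKM in Zy24, against 410.4, 495 and 627 FPKM in Zy14. ARF10 had 0.03, 0.02 and 0.09 FPKM in Zy24, against 28.1, 36.2 and 24.9 FPKM in Zy14 (log2 change -4.86 ± 0.44, adjusted p = 8.89e-07), so that it was near 0 in every Zy24 library. ARF2 had 18.8, 14.8 and 18.5 FPKM in Zy24, against 59.6, 58.1 and 104 FPKM in Zy14 (log2 change -1.98 ± 0.21, adjusted p = 3.56e-06). ARF11 had 2.78, 1.73 and 2.41 FPKM in Zy24, against 24.7, 18.9 and 61 FPKM in Zy14 (log2 change -3.27 ± 0.36, adjusted p = 6.33e-06). Of 20 Aux/IAA repressors 8 fell and 3 rose, where 21.6% and 16.2% of all tested genes did. IAA16 had 0.41, 0 and 0 FPKM in Zy24, against 7.08, 8.14 and 7.73 FPKM in Zy14 (log2 change -2.95 ± 0.26, adjusted p = 6.52e-07). SAUR genes, rapid auxin responders tied to cell expansion, had 5 falls and 4 rises of 21. AT2G46690 rose (35.6, 88.2 and 40.8 FPKM in Zy24, against 6.54, 8.12 and 8.33 FPKM in Zy14, log2 change 2.58 ± 0.28, adjusted p = 4.77e-06), and AT3G60690 fell (0.05, 1.33 and 0.63 FPKM in Zy24, against 33.9, 39.8 and 112 FPKM in Zy14, log2 change -5.1 ± 0.41, adjusted p = 3.36e-07).

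Of 19 jasmonate synthesis genes and JAZ repressors 11 fell and 2 rose, where 21.6% and 16.2% of all tested genes did. Their median was -1.64, and their summed FPKM was 239.7, 260.3 and 197 FPKM in Zy24, against 843, 608 and 628 FPKM in Zy14. LOX5, a lipoxygenase, was a large part of the Zy14 sums, and whether it acts in jasmonate synthesis was not tested. It had 27.1, 17.3 and 21.1 FPKM in Zy24, against 374, 252 and 192 FPKM in Zy14 (log2 change -3.55 ± 0.29, adjusted p = 3.12e-07). JAZ8, a repressor of jasmonate responses, had 4.34, 3 and 3.37 FPKM in Zy24, against 54.9, 46.2 and 36.1 FPKM in Zy14 (log2 change -3.35 ± 0.3, adjusted p = 6.96e-07). For both, the Zy14 libraries were many times the Zy24 libraries. ACS6, a synthase of the ethylene precursor, had 0.02, 0 and 0 FPKM in Zy24, against 66, 48.1 and 47.5 FPKM in Zy14 (log2 change -5.75 ± 0.3, adjusted p = 4.01e-09), and GA2OX6, which inactivates gibberellin, was listed at 0 in Zy24 against 53.6, 15 and 28.3 FPKM in Zy14 (adjusted p = 2.64e-07). IPT9, an isopentenyltransferase of cytokinin synthesis, had 6.63, 6.75 and 5.08 FPKM in Zy24, against 18.3, 21.9 and 23.9 FPKM in Zy14 and fell (log2 change -1.65 ± 0.19, adjusted p = 7.85e-06).

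Calcium signalling genes had 14 falls and 8 rises among 46 calmodulin and calmodulin-like genes. Among all tested genes 21.6% fell and 16.2% rose. CDPK9, a calcium-dependent kinase, had 0, 0.12 and 0.08 FPKM in Zy24, against 28, 35.6 and 57.2 FPKM in Zy14 and fell (log2 change -5.21 ± 0.29, adjusted p = 6.67e-09). CPK13, of the same class, had 65.3, 48.2 and 61.2 FPKM in Zy24, against 14.2, 18.6 and 17.8 FPKM in Zy14 and rose (log2 change 1.73 ± 0.22, adjusted p = 2.01e-05).

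Of 31 tested defensin-like, thionin and related genes 11 rose and 2 fell, and the summed FPKM was 1823, 2492 and 1525 FPKM in Zy24, against 438, 549 and 267 FPKM in Zy14. Without Zy14 replicate 1 and Zy24 replicate 3 the count of rises was 7. AT5G63085, a thionin-family gene, was a large part of the sum, with 1022, 1413 and 828 FPKM in the Zy24 libraries, against 172, 243 and 67.6 FPKM in the Zy14 libraries (log2 change 2.9 ± 0.6, adjusted p = 0.00114). AT1G77525, a defensin-like gene, had 331, 477 and 311 FPKM in Zy24, against 14, 3.02 and 9.5 FPKM in Zy14 (log2 change 5.42 ± 0.43, adjusted p = 2.6e-07). LCR68 had 13.1, 68.4 and 39.3 FPKM in Zy24, against 0.63, 0 and 0 FPKM in Zy14 and rose (log2 change 4.85 ± 0.41, adjusted p = 4.73e-07), while LCR69 was listed at 0 in Zy24, against 42.5, 101 and 71.3 FPKM in Zy14 (adjusted p = 4.79e-08). Leucine-rich repeat receptor kinases, the class that binds many such peptides, fell in 37 and rose in 22 of 118 tested genes. Over all tested genes 21.6% fell and 16.2% rose. AT1G53420 had 86.6, 48.2 and 55.5 FPKM in Zy24, against 1.37, 3.13 and 0 FPKM in Zy14 and rose (log2 change 4.87 ± 0.45, adjusted p = 1.04e-06). IKU2, a receptor kinase known for endosperm growth, had 0.12, 0.03 and 0.04 FPKM in Zy24, against 13.1, 5.11 and 19.9 FPKM in Zy14 and fell (log2 change -3.52 ± 0.4, adjusted p = 6.97e-06).

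SWEET8, a sugar transporter of the plasma membrane, had the highest mean FPKM of Zy24, with 3253, 3419 and 3493 FPKM in the Zy24 libraries, against 1065, 1355 and 668 FPKM in the Zy14 libraries (log2 change 1.78 ± 0.32, adjusted p = 0.000371). The carbohydrate kinase gene AT3G59480 had 2604, 3263 and 3505 FPKM in Zy24, against 730.1, 1062 and 949.6 FPKM in Zy14 (log2 change 1.78 ± 0.14, adjusted p = 2.43e-07). Both were higher in every Zy24 library than in any Zy14 library. The elongation factor AT5G60390 had 2388, 3054 and 3289.9 FPKM in Zy24, against 3185, 3816 and 2171 FPKM in Zy14, and its change was not called (log2 change -0.05 ± 0.17, adjusted p = 0.862). In Zy14 the highest mean belonged to EC1.1. The 100 highest genes took 15.1%, 16.6% and 15.7% of the summed FPKM in the Zy24 libraries, against 13.6%, 16.8% and 12.3% in the Zy14 libraries. The mean difference of 1.58 percentage points had an exact two-sided permutation p of 0.4, where 3 against 3 libraries cannot give less than 0.1.

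The same step was read in the hybrid zygotes, which share no library with the Col step. Of the 2987 genes that rose in Col, 1494 (50%) also rose in LZy, where 3239 genes rose in all (17.2% of 18815 tested), so the shared genes were 46.1% of the LZy rises. In CZy 3593 genes rose (19.1%), and the 1724 shared with Col were 57.7% of the Col rises and 48.0% of the CZy rises. Of the 3984 genes that fell in Col, 1717 were among the 3558 that fell in LZy (18.9%), or 43.1% of the Col and 48.3% of the LZy falls, and 2193 were among the 4644 that fell in CZy (24.7%), or 55% of the Col and 47.2% of the CZy falls. Of the Col rises 905 were called higher in neither cross, and of the Col falls 1333 were called lower in neither, counts that include genes called in the opposite direction. Of the Col rises 64 fell in LZy and 136 in CZy, and of the Col falls 174 rose in LZy and 158 in CZy.

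Whether the step itself differed was tested by subtracting the mean hybrid log2 change from the Col log2 change, with limma over the 18 zygote libraries. The step was called higher in Col for 1296 genes (6.89%) and lower for 1605 (8.53%). These counts rest heavily on a few libraries. Without Zy24 replicate 3 they were 798 and 1098, and without Zy24 replicate 3, LZy14 replicate 3 and CZy14 replicate 2 together they were 275 and 481, of which 274 and 477 were among those reported. LZy14 replicate 3 lay between its partners in 99.9% of 2715 genes that differ more than 2-fold between them, and CZy14 replicates 1 and 2 had a log2 correlation of 0.985, against 0.809 and 0.824 with replicate 3. The build named by the submitters, TAIR10, is that of Col, and how reads of Ler alleles were placed was not tested.

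**Figure D5:**
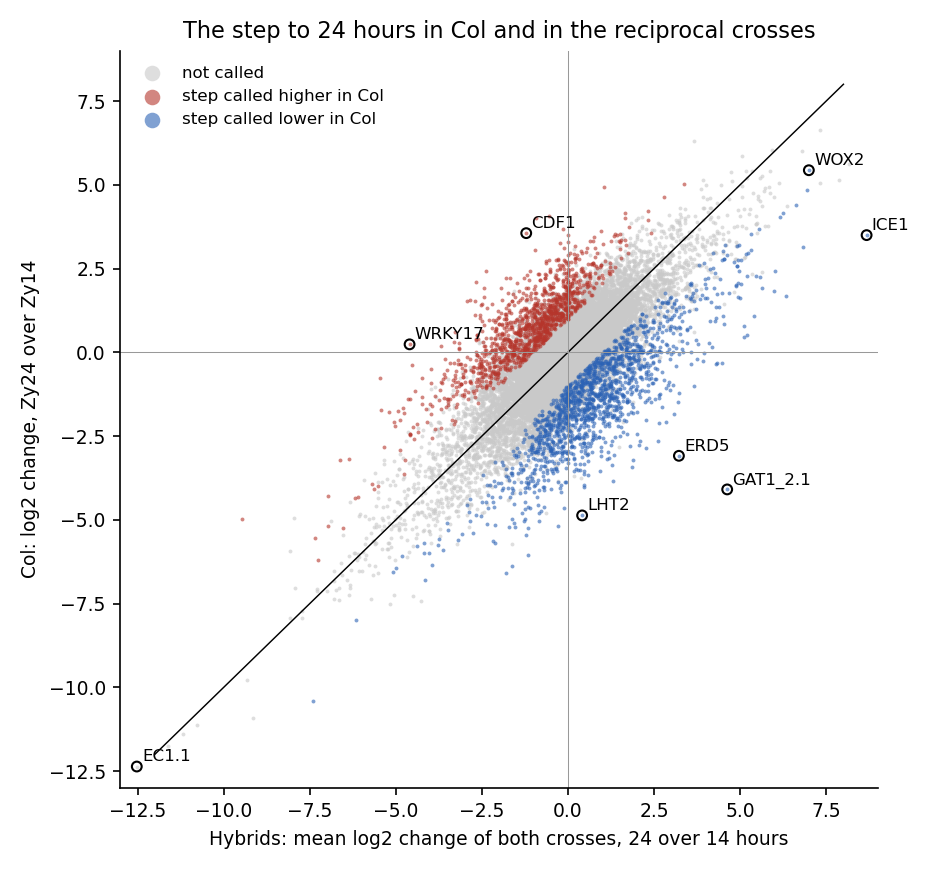
Each point is a gene, with its log2 change from 14 to 24 hours in Col on the vertical axis and the mean log2 change of both crosses on the horizontal axis; the line marks equal changes. Red points have a step called higher in Col (1296 genes) and blue points one called lower (1605). EC1.1 lies on the line at the bottom, ICE1 far to the right of it and CDF1 and WRKY17 far to the left.

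All 9 egg cell genes fell in Col, LZy and CZy. Of the 304 ribosomal protein genes 56 rose in Col (94 without Zy14 replicate 2), 135 in LZy and 114 in CZy, where 16.2%, 17.2% and 19.1% of all tested genes did. The step was called lower in Col for 21 of them and higher for 1, where 8.53% and 6.89% of all tested genes were so called. WOX2 rose in each, with 484 FPKM in LZy24 against 2.25 FPKM in LZy14 and 345 FPKM in CZy24 against 2.31 FPKM in CZy14 beside the Col means of 229.5 FPKM in Zy24 and 4.21 FPKM in Zy14. The Col step minus the hybrid step was -1.56 ± 0.38, adjusted p = 0.00932. SSP, not called in Col, fell in LZy (log2 change -2.51) and CZy (-3.49), and the step difference of 2.62 ± 0.54, adjusted p = 0.0035, was called. ROP2 rose more in the crosses, with 242 FPKM in LZy24 against 4 FPKM in LZy14 and 139 FPKM in CZy24 against 7.06 FPKM in CZy14 (step difference -2.2 ± 0.55, adjusted p = 0.0116). The receptor kinase ER had a step difference of 2.69 ± 0.44, adjusted p = 0.000781. All hybrids have a Landsberg erecta parent, and the part of the Ler allele of ER in this difference was not tested. CSLD2, which rose in Col, and CSLD3, which fell in Col, had step differences of 1.56 ± 0.32, adjusted p = 0.00389, and -2.52 ± 0.54, adjusted p = 0.00454. Without Zy24 replicate 3, LZy14 replicate 3 and CZy14 replicate 2 the calls for WOX2, SSP, ROP2, CSLD2 and CSLD3 were lost, at step differences of -1.55, 2.42, -2.33, 1.41 and -2.19 with adjusted p from 0.0511 to 0.0763, and that for ER was kept.

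The 6 steps that were lowest in Col relative to the crosses included genes that fell in Col and rose in a cross. Where a group is listed at 0, as in GAT1_2.1, LHT2, CDF1, WRKY17, AT5G55150 and AT4G16820, the size of the step difference depends on the added 1 FPKM and is no bound on the true difference. GAT1_2.1, a predicted glutamine amidotransferase, was listed at 0 in Zy24, against 23.6, 29.8 and 5.58 FPKM in Zy14, while the cross means were 57.2 FPKM in LZy24 against 0 FPKM in LZy14 and 58.3 FPKM in CZy24 against 5.66 FPKM in CZy14 (step difference -8.72 ± 0.94, adjusted p = 3.5e-05). ERD5, known as the proline dehydrogenase of mitochondria, had 0.39, 4.03 and 3.84 FPKM in Zy24, against 22.9, 25.2 and 32.3 FPKM in Zy14, and in the crosses 115 FPKM in LZy24 against 0.967 FPKM in LZy14 and 12.4 FPKM in CZy24 against 8.29 FPKM in CZy14 (step difference -6.31 ± 0.65, adjusted p = 2.56e-05). PDCB1, a callose-binding protein of plasmodesmata, had 0.18, 0 and 0 FPKM in Zy24, against 10.5, 20.2 and 4.95 FPKM in Zy14, and in the crosses 17.4 FPKM in LZy24 against 5.33 FPKM in LZy14 and 28.6 FPKM in CZy24 against 6.48 FPKM in CZy14 (step difference -5.29 ± 0.65, adjusted p = 8.56e-05). In these 3 genes the Col libraries were lower at 24 than at 14 hours, and the means of both crosses were higher at 24 than at 14 hours. ICE1, which rose in all, did so most in the crosses, with 561 FPKM in LZy24 against 0.01 FPKM in LZy14 and 725 FPKM in CZy24 against 2.35 FPKM in CZy14 (step difference -5.18 ± 0.57, adjusted p = 4.2e-05). The acyl activating enzyme AAE5 (-5.26 ± 0.74, adjusted p = 0.000243) and the amino acid transporter LHT2 (-5.28 ± 0.59, adjusted p = 4.66e-05) complete the lower end.

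At the upper end, CDF1 (AT5G62430), a Dof repressor of flowering, had 18.9, 5.91 and 11.3 FPKM in Zy24, against 0.04, 0 and 0 FPKM in Zy14, and in the crosses 0 FPKM in LZy24 against 2.06 FPKM in LZy14 and 0.017 FPKM in CZy24 against 1.58 FPKM in CZy14 (step difference 4.77 ± 0.69, adjusted p = 0.000296). WRKY17 was not called in Col, with 33.5, 19.4 and 21.4 FPKM in Zy24, against 27.7, 16.7 and 17.9 FPKM in Zy14 (log2 change 0.24 ± 0.32, adjusted p = 0.568), but fell in the crosses, with 1.46 FPKM in LZy24 against 40.4 FPKM in LZy14 and 0 FPKM in CZy24 against 33.5 FPKM in CZy14 (step difference 4.84 ± 0.46, adjusted p = 1.33e-05). AT1G73390, with a BRO1-like domain, had 44.4, 10.2 and 23.8 FPKM in Zy24, against 0.2, 0 and 1.53 FPKM in Zy14, and in the crosses 0.74 FPKM in LZy24 against 3.69 FPKM in LZy14 and 0.03 FPKM in CZy24 against 0.44 FPKM in CZy14 (step difference 4.95 ± 0.6, adjusted p = 7.24e-05). In CDF1 and AT1G73390 every Zy24 library was above every Zy14 library, and the means of both crosses were lower at 24 than at 14 hours. RBP-DR1, an RNA-binding protein of defence, rose in Col (8.51, 14.9 and 10.2 FPKM in Zy24, against 0.83, 1.67 and 3.48 FPKM in Zy14) and differed by 4.76 ± 0.58, adjusted p = 7.24e-05. The hydrolase gene AT4G16820 (4.71 ± 0.83, adjusted p = 0.00129) and the F-box gene AT5G55150 (4.81 ± 1.3, adjusted p = 0.0173) were not called in Col alone. Without Zy14 replicate 2 AT4G16820 fell in Col (-1.8). AT5G55150 rose in Col at a pseudocount of 5 (1.65) and without Zy14 replicate 1 (3.17) or Zy14 replicate 2 (3.3). For AT5G55150 the step difference was 4.32 without Zy24 replicate 1, with an adjusted p of 0.0529. Without Zy24 replicate 3, LZy14 replicate 3 and CZy14 replicate 2 it was 4.37, with an adjusted p of 0.108. In neither fit was the step difference called.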

How the data were processed

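The files give FPKM per gene, 1 table per library, as made by the authors and deposited with 2 decimals; per the submitters' processing notes TopHat2, RSEM and the TAIR10 build were used, with versions and roles not given in the sources used here. A gene absent from a table was taken as 0. Of 24607 genes listed in any library, 24511 were found in the RefSeq annotation, which gave names and products, and 21987 were listed in at least 1 of the 6 libraries. Depth per library is known only from the steps of low values in genes with 1 transcript, so no counting intervals are given.

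The FPKM were used as deposited, as log2(FPKM + 1), in limma 3.58.1 (R 4.3.3) with trend and robust empirical Bayes moderation and Benjamini-Hochberg adjustment. The 15 Col libraries (egg cell, Zy14, Zy24, 1-cell and 32-cell embryo) shared 1 fit, keeping genes with at least 1 FPKM in at least 3 libraries, and 18 zygote libraries shared another. Log2 changes are 24 over 14 hours, given ± SE. The procedure was tested on simulated data. Named were the 12 highest and 12 lowest called changes whose libraries do not overlap, the called members of each list with the largest change (at most 6), polarity regulators, the 6 highest and 6 lowest step differences and the 8 highest means per group; 4 genes of the closing observations were added after their values were seen. Gene lists came from product descriptions or named loci, and they, like the members, were chosen with earlier results of these data known. Alternatives were other pseudocounts, filters, scalings, a replicate block, only the 6 libraries, and leaving out libraries. Python 3.11.15, numpy 2.4.6, pandas 2.3.3, scipy 1.17.1 and matplotlib 3.10.9 did the rest.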

Additional observations from a re-analysis of the deposited data

Results flagged for a closer look

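The step from 14 to 24 hours differed between Col and the mean of the crosses, by a limma test of the difference itself, for 1296 genes with a higher and 1605 with a lower step in Col. The 6 lowest differences on the log2 scale were -8.72 for GAT1_2.1, -6.31 for ERD5, -5.29 for PDCB1, -5.28 for LHT2, -5.26 for AAE5 and -5.18 for ICE1. The 6 highest were 4.95 for AT1G73390, 4.84 for WRKY17, 4.81 for AT5G55150, 4.77 for CDF1, 4.76 for RBP-DR1 and 4.71 for AT4G16820. In LHT2, a transporter of amino acids, the means of Col and of the Ler × Col cross were lower at 24 hours, with 0, 0 and 0 FPKM in Zy24, against 16.8, 32.9 and 40.5 FPKM in Zy14, and 17.8 FPKM in LZy24 against 32.9 FPKM in LZy14, while CZy24 had 9.47 FPKM against 2.74 FPKM in CZy14. AT4G16820 had 17.5, 32 and 39.8 FPKM in Zy24, against 86.8, 10.8 and 116 FPKM in Zy14, and 1.43 FPKM in LZy24 against 39.2 FPKM in LZy14 and 0 FPKM in CZy24 against 114 FPKM in CZy14. Where a group is listed at 0, the size of the difference depends on the added 1 FPKM and is no bound. Apart from AT5G55150, each of the 12 kept its call in every alternative run for it. The cause of these differences was not tested.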

How the results depend on the processing

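Counts for the Col step stayed within 1.5 times those reported, 2987 higher and 3984 lower, in every alternative but a pseudocount of 5, which gave 2374 lower (2136 higher). Leaving out 1 library gave 2615 to 3039 higher and 3308 to 3955 lower genes. Equal FPKM sums gave 2624 higher and 4349 lower (37.6% higher), and quantile normalization 3489 and 3223 (52.0%). Over all genes the log2 change had a median of -0.174 with equal sums, -0.137 with median of ratios scaling, 0.051 with quantile normalization, 0.008 with only the 6 libraries, 0.0 with a minimum of 5 FPKM, and -0.107 to -0.006 without 1 library. The step difference gave 798 to 1565 higher and 1098 to 1824 lower genes without 1 library, and 275 and 481 without Zy24 replicate 3, LZy14 replicate 3 and CZy14 replicate 2, an alternative chosen after seeing the data, as was leaving out Zy14 replicate 1 and Zy24 replicate 3 (2448 and 3076). The difference in the share of the 100 highest genes was 1.86 points without the highest gene and 0.61 to 2.86 without 1 library. Correlations of deviations were 0.014, 0.024 and 0.038 between same-numbered libraries of the 2 ages and -0.041 to -0.003 between the others. The labels do not state whether the numbers pair libraries, and values this small cannot decide it. With the replicate number as a block 2994 genes were higher and 3997 lower, with 1261 and 1594 for the step difference. None of the 347 named calls was lost in that fit. Named calls lost ranged from 0 with a minimum of 5 FPKM to 52 with a pseudocount of 5, and from 9 to 23 without 1 library. A named gene that a fit did not keep was not counted as lost. The 0 thus covers only genes that passed the filter of 5 FPKM. Direction turned in genes not called: HDG11 (-0.598 to 0.037 without 1 library), WOX8 (-0.159 with quantile normalization, -0.044 to 0.307 without 1 library), AT2G01210 (0.428 with quantile normalization, -0.813 to 0.381 without libraries) and AT5G60390 (-0.273 to 0.133 without 1 library). The cause was not tested. A pseudocount of 5 was not run for the step difference.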

Other observations

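The 4 named genes of ribosomal RNA processing with a Brix domain, and 1 methyltransferase gene, were near 0 at 24 hours in Col and abundant before and after it. Apart from MEE49, which is among the 12 lowest changes, they were chosen after their values were seen. MEE49, a Brix domain protein, had 0, 0.17 and 0.11 FPKM in the Zy24 libraries, against 209, 186 and 206 FPKM in the Zy14 libraries, with means of 145 FPKM in egg cells and 144 FPKM in 1-cell embryos. Its fall was called (log2 change -7.52 ± 0.13, adjusted p = 1.57e-14). IMP4, another, had 0.03, 0.09 and 0.06 FPKM in Zy24, against 160.1, 149.9 and 183 FPKM in Zy14 (log2 change -7.28 ± 0.13, adjusted p = 1.78e-14). The Brix domain genes AT1G52930 (0.17, 0.1 and 0.32 FPKM in Zy24, against 203, 260 and 164 FPKM in Zy14) and AT3G15460 (0, 0 and 0 FPKM in Zy24, against 62.8, 46.8 and 44.7 FPKM in Zy14) and AT5G40530, of the methyltransferase superfamily, (0.04, 0 and 0 FPKM in Zy24, against 141, 149 and 169 FPKM in Zy14) were likewise near 0 in Zy24 alone of the Col zygotes, and their 1-cell embryo means were 276, 73.6 and 105 FPKM. The hybrid libraries split by replicate. MEE49 had 108, 0 and 129 FPKM in the LZy24 libraries, and AT1G52930 had 213, 0 and 259 FPKM. LZy24 replicate 2 was at the level of Col, and replicates 1 and 3 were not. In CZy24 MEE49 had 0.61, 0.39 and 0.09 FPKM and AT1G52930 had 0.39, 0.2 and 0.11 FPKM. Entries at or near 0 can be failed estimates, and whether these values reflect transcript levels or their estimation was not tested.

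Genes called lower at 24 hours had longer transcripts than those called higher. Among genes with 1 annotated transcript, the median length was 1292 bases for 1530 genes called higher, 1660 bases for 2316 called lower and 1541 bases for all 9783 tested. Of 8 argonaute genes, effectors of small RNAs, 4 fell and 0 rose, and AGO2 had 17.7, 15.4 and 17.2 FPKM in Zy24, against 58.1, 58.9 and 66.2 FPKM in Zy14 (log2 change -1.8 ± 0.2, adjusted p = 5.17e-06). Of 17 tested peroxidases 7 fell and 2 rose. AT5G51890, a member, had 0, 0.09 and 0 FPKM in Zy24, against 114, 63.8 and 68.2 FPKM in Zy14 (log2 change -6.28 ± 0.39, adjusted p = 2.78e-08). Lipid transfer proteins rose in 9 and fell in 5 of 40 tested genes, where 16.2% and 21.6% of all tested genes did. AT5G38170, one of them, had 4.79, 103 and 59.9 FPKM in Zy24 and was listed at 0 in Zy14, and AT5G09370 had 29.1, 20.2 and 20.4 FPKM in Zy24, against 166, 305 and 168 FPKM in Zy14 and fell (log2 change -3.1 ± 0.32, adjusted p = 3.57e-06).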
